A study of Sus scrofa with 12 samples.

Results

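RAP1GDS1 encodes SmgGDS, a protein built of armadillo repeats that binds small GTPases. It was studied here with the 2 array probe sets whose symbol in the annotation of the array is RAP1GDS1, 1 gene of the 13664 with a symbol on the array. The gene was chosen for its difference between pigs of high and low feed efficiency (FE, the growth gained from a given amount of feed), as read from the brighter of these probe sets. Levels by FE are therefore given below as a description, with no test of RAP1GDS1 for FE.

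The samples were duodenal mucosa of 12 pigs aged 140 days, 1 Affymetrix Snowball array per pig. There were 6 pigs of high FE, numbered 1 to 6, of which pigs 1, 2 and 3 were male and pigs 4, 5 and 6 female. The 6 pigs of low FE were numbered and divided between the sexes in the same way. The labels give no breed, diet or measured efficiency for either group. Each value is a log2 signal of a probe set as deposited, so that a difference of 1 is a doubling of signal.

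Small GTPases such as RAP1A, RAP1B, RHOA, RAC1 and the RAS proteins switch between a GTP-bound and a GDP-bound state and are anchored to membranes by a lipid tail that is added at their C terminus. In human cells SmgGDS binds GTPases that carry a stretch of basic residues next to that tail. Its long splice form takes up GTPases before the lipid is added and its short form binds them afterwards, and it has also been described as a nucleotide exchange factor for RHOA and RHOC. In epithelia RAP1 proteins and the GTPases of the RHOA family act on cell junctions, the cytoskeleton and adhesion to the matrix.

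SNOWBALL_042415_st had a mean of 6.21 over the 12 pigs and ranged between 5.15 and 7.20. SNOWBALL_026048_st had a mean of 6.13 and ranged between 5.71 and 6.36. The array background, taken as the median of the 69 antigenomic background probe sets of each array, lay between 2.16 and 2.46 in high FE and between 2.25 and 2.53 in low FE. Of these 69 probe sets, which match no pig transcript, 20 had a mean above that of SNOWBALL_042415_st and 21 had one above that of SNOWBALL_026048_st. A level above the background medians is thus no proof of a transcript, since unmatched probes also reached it. The RefSeq gene table for Sscrofa11.1 lists 5 transcript accessions for pig RAP1GDS1, and which of them each probe set detects is not given in the sources used here.

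SNOWBALL_042415_st gave the difference for which the gene was chosen. Its values in high FE pigs 1 to 6 were 6.75, 6.53, 6.21, 7.20, 6.82 and 6.65. In low FE pigs 1 to 6 they were 5.55, 6.11, 6.17, 5.15, 5.77 and 5.59. High FE pig 4 had the highest signal of the 12 and low FE pig 4 the lowest, and both are females. The groups did not overlap, but only just, since the lowest high FE pig (pig 3) stood at 6.21 and the highest low FE pig (also pig 3) at 6.17. The mean was 6.69 ± 0.33 in high FE and 5.72 ± 0.38 in low FE (SD, n = 6 each), a difference of 0.97 ± 0.20 (SE from limma), or 1.96 in fold.

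In the fit over 33405 probe sets, 0 passed an adjusted p of 0.05 for FE (0%; limma with Benjamini-Hochberg adjustment), and 2000 had an unadjusted p under 0.05 (5.99%). An ordinary linear model also gave 0. Groups that did not overlap were found for 87 of the probe sets (0.260%), with high FE above low FE in 30 of them (0.0898%). SNOWBALL_042415_st is 1 of these 30, and nothing is read from that here, because its difference chose the gene.

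SNOWBALL_026048_st, the other probe set, had values of 6.20, 6.16, 5.97, 6.35, 6.22 and 6.31 in high FE pigs 1 to 6. In low FE pigs 1 to 6 its values were 6.36, 6.06, 6.10, 6.0, 5.71 and 6.09. These groups overlapped over most of their range, and the highest of all 12 values belonged to low FE pig 1. Means were 6.20 ± 0.13 in high FE and 6.05 ± 0.21 in low FE (SD, n = 6 each), a difference of 0.15 ± 0.12 (SE from limma). The difference had the same sign as that of SNOWBALL_042415_st and was about the size of its own error. The gene's mean signal over both probe sets ranged between 6.09 and 6.78 in high FE and between 5.58 and 6.13 in low FE, and differed by 0.56 ± 0.14 (SE from limma).

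The choice of SNOWBALL_042415_st to stand for the gene rests on a mean signal that is higher by less than 0.1 than that of the other probe set. Within an array, the signal of SNOWBALL_042415_st minus that of SNOWBALL_026048_st was between 0.24 and 0.85 in the 6 high FE pigs. In low FE it was between -0.85 and 0.07. The mean of this quantity was 0.49 ± 0.22 in high FE and -0.33 ± 0.44 in low FE (SD, n = 6 each), so that the 2 probe sets differed unequally between the groups. The gene was chosen by the FE difference of SNOWBALL_042415_st, which by itself shifts this quantity between the groups. Low FE pigs 1, 4 and 6 had clearly negative values, and low FE pigs 2, 3 and 5 had values close to 0.

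**Figure D1:**
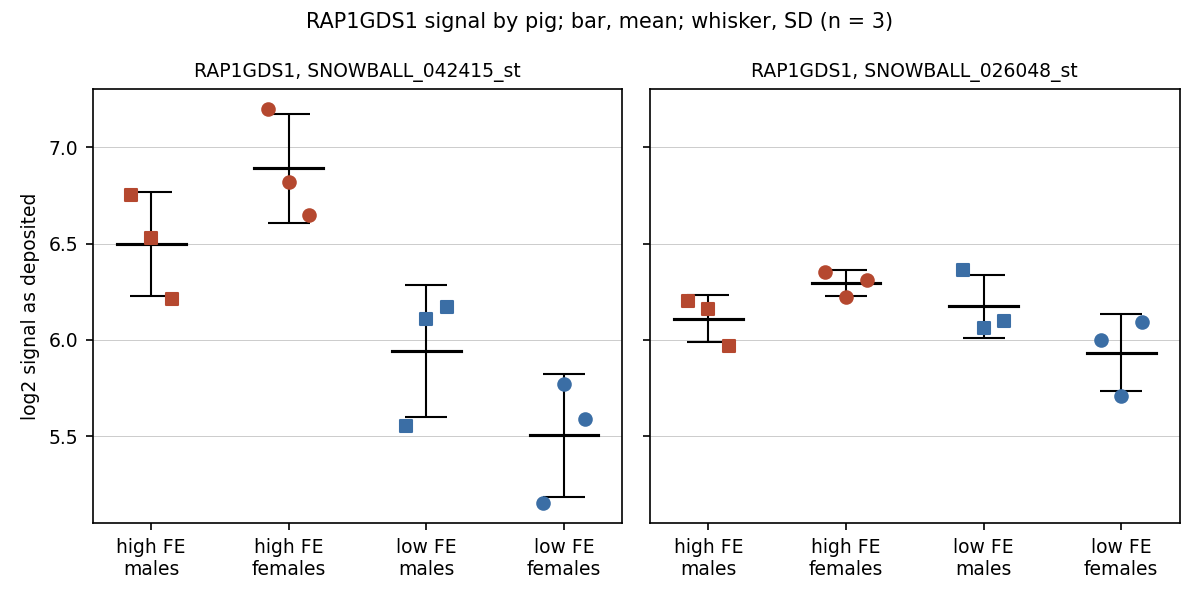
The log2 signal of each RAP1GDS1 probe set (vertical axis) is plotted for each pig by FE and sex, with squares for males, circles for females, a horizontal bar for the mean and whiskers for the SD over 3 pigs. SNOWBALL_042415_st lies between 6.21 and 7.20 in high FE and between 5.15 and 6.17 in low FE, while the values of SNOWBALL_026048_st overlap.

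Agreement between the probe sets depended on the pigs compared. Over all 12 pigs their signals had a Pearson r of 0.487 and a Spearman rho of 0.462. All p-values given for correlations are two-sided, and 9 relations were computed in the family. Without the 2 arrays farthest from the median of SNOWBALL_026048_st, those of low FE pigs 1 and 5, r was 0.798 (n = 10). Low FE pig 1, which had the highest signal from one probe set and the second lowest from the other, weighed most on the r over all pigs, which was 0.722 without that pig alone (n = 11). All of these r and rho include the FE difference for which the gene was chosen, and the pigs left out were picked by their values. No test is therefore given for them.

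Within the 6 high FE pigs the probe sets had an r of 0.871 (exact permutation p = 0.0403, adjusted p = 0.363) and a rho of 0.829 (exact permutation p = 0.0583, adjusted p = 0.525). Within the 6 low FE pigs r was -0.0519 (exact permutation p = 0.924, adjusted p = 0.924) and rho 0.0857 (exact permutation p = 0.919, adjusted p = 0.919). No relation passed after adjustment, and the difference between the groups was not tested. With the mean of each combination of FE and sex removed, r over the 12 pigs was -0.259.

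**Figure D2:**
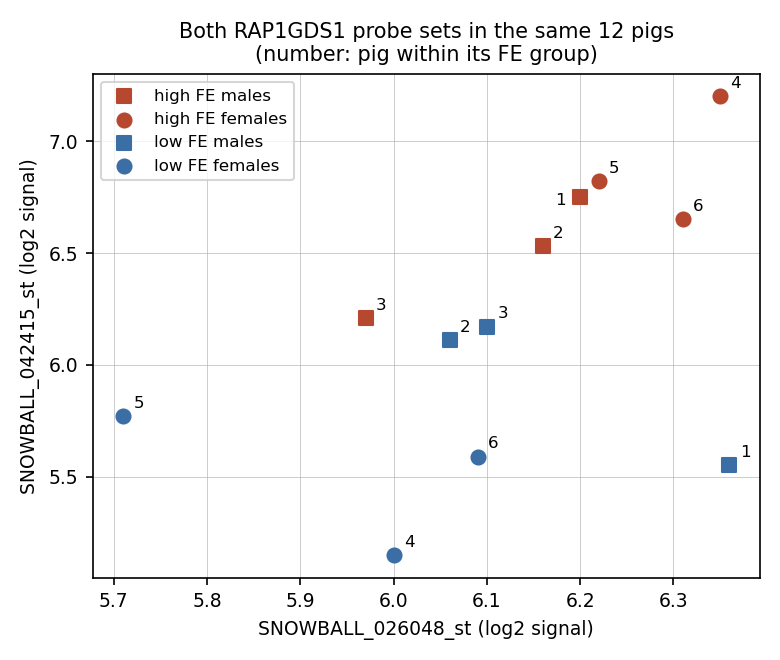
Each point is a pig, with the log2 signal of SNOWBALL_026048_st on the horizontal axis and that of SNOWBALL_042415_st on the vertical axis; colour gives FE, the marker sex and the number the pig within its FE group. The 6 high FE pigs lie along a rising line, and low FE pig 1 stands far to the right of the other low FE pigs.

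Other genes with at least 2 tested probe sets give a scale for this agreement. For 5155 such genes, the 2 probe sets with the highest means had a median r of 0.344 after the same means were removed, with quartiles at 0.017 and 0.651. Of these genes, 10.9% had a lower r than RAP1GDS1. Among the 739 genes whose probe sets both had a mean between 5.5 and 7, the median was 0.472 and 7.6% had a lower r. These are correlations over the same 12 arrays and are given as a description. The difference between high and low FE differed by 0.82 between the RAP1GDS1 probe sets, against a median of 0.154 over the 5155 genes, and 98.5% of them had a smaller gap. RAP1GDS1 was chosen by the larger of its 2 differences, which by itself widens its gap.

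**Figure D3:**
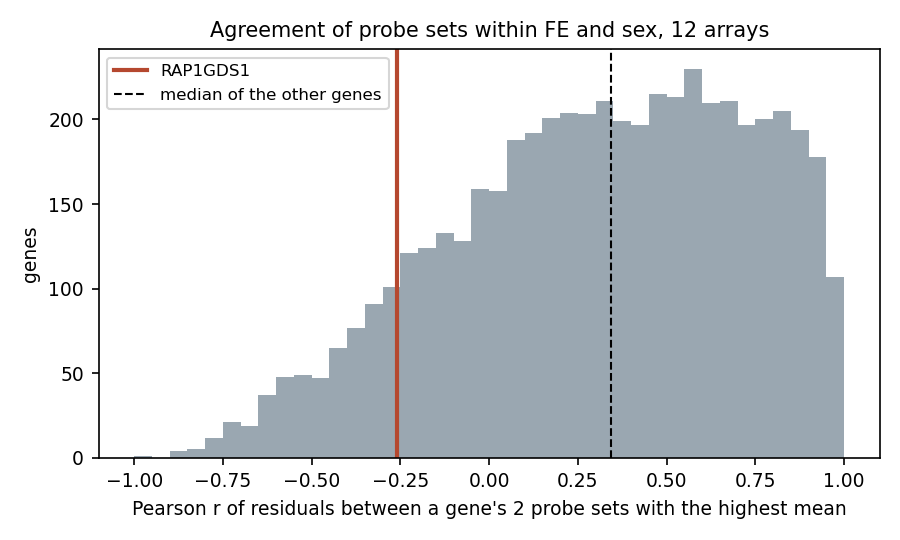
The histogram counts genes (vertical axis) by the Pearson r between their 2 probe sets with the highest means (horizontal axis), over 12 arrays with the mean of each combination of FE and sex removed. The red line marks RAP1GDS1 at -0.259, and the broken line marks the median of the other 5155 genes at 0.344.

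Neither probe set had a relation with the array background that passed the threshold, where a test is given. SNOWBALL_042415_st had an r of -0.236 and a rho of -0.245 with the background median over the 12 pigs. Both include the FE difference for which the gene was chosen, so they are given without a test. The r was 0.0822 without the arrays of high FE pig 5 and low FE pig 6 (n = 10). These were left out by their background values, so no test is given there either. The r was 0.0632 within high FE (exact permutation p = 0.918, adjusted p = 0.924) and 0.317 within low FE (exact permutation p = 0.543, adjusted p = 0.698). SNOWBALL_026048_st had an r of -0.243 (permutation p = 0.452, adjusted p = 0.698) and a rho of -0.245 (permutation p = 0.443, adjusted p = 0.746). That r was -0.205 without the same arrays (n = 10, again without a test), 0.35 within high FE (exact permutation p = 0.532, adjusted p = 0.698) and -0.409 within low FE (exact permutation p = 0.433, adjusted p = 0.698). The background itself averaged 2.30 ± 0.12 in high FE and 2.38 ± 0.10 in low FE (SD, n = 6 each).

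The spread between pigs of a group also differed between the probe sets. The pooled SD within FE groups was 0.36 for SNOWBALL_042415_st, and 69.6% of the 5636 tested probe sets within 0.5 of its mean had a smaller one. For SNOWBALL_026048_st the pooled SD was 0.18, and 14.5% of 5723 such probe sets had a smaller one. The median of either comparison set was 0.28.

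The level in males against that in females was not used to choose the gene, although the sign of the FE difference within each sex was. RAP1GDS1 did not pass the threshold between males and females with either probe set. SNOWBALL_042415_st had 6.22 ± 0.41 in males and 6.20 ± 0.81 in females (SD, n = 6 each), a difference of 0.02 ± 0.20 (SE; limma adjusted p = 0.996) with a 95% interval between -0.42 and 0.46. SNOWBALL_026048_st had 6.14 ± 0.13 in males and 6.11 ± 0.24 in females (SD, n = 6 each), a difference of 0.03 ± 0.12 (SE; limma adjusted p = 0.992) with a 95% interval between -0.24 and 0.30. Over all 33405 probe sets, 7 passed for sex (0.0210%) in limma and 6 in an ordinary linear model, and 1516 had an unadjusted p under 0.05 (4.54%). Neither RAP1GDS1 probe set was among the 1516, with unadjusted p-values of 0.918 and 0.828. The values of males and females overlapped for both, as for all but 90 probe sets (0.269%).

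The means of the sexes were close because they differed in opposite directions in the FE groups. For SNOWBALL_042415_st the order of the 4 combinations was high FE females at 6.89 ± 0.28, high FE males at 6.50 ± 0.27, low FE males at 5.94 ± 0.34 and low FE females at 5.50 ± 0.32 (SD, n = 3 each). High FE females, between 6.65 and 7.20, overlapped high FE males, between 6.21 and 6.75. Low FE males, between 5.55 and 6.17, overlapped low FE females, between 5.15 and 5.77. Each high FE combination lay above each low FE combination, most narrowly for males, between high FE pig 3 and low FE pig 3. Male minus female was -0.40 within high FE and 0.44 within low FE. High minus low FE was accordingly 0.55 ± 0.24 (SE) in males and 1.39 ± 0.24 (SE) in females.

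SNOWBALL_026048_st had the same order for females, at 6.29 ± 0.07 in high FE and 5.93 ± 0.20 in low FE. The ranges were 6.22 to 6.35 and 5.71 to 6.09 and did not overlap. How many of all probe sets separate with 3 pigs against 3 was not counted, so nothing is read from that. In males it had 6.11 ± 0.12 in high FE and 6.17 ± 0.16 in low FE (SD, n = 3 each), with overlapping ranges. High minus low FE was -0.06 ± 0.16 (SE) in males and 0.36 ± 0.16 (SE) in females. The ranking that chose the gene asked for the same sign of the SNOWBALL_042415_st difference in both sexes, so the contrast between the sexes is given without a test.

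The pig identifiers in the labels form 2 runs, 301 to 310 and 317 to 324, and all 4 pigs of the second are female. High minus low FE for SNOWBALL_042415_st was 0.93 within the first run (4 pigs per FE group) and 1.06 within the second (2 pigs per FE group). For SNOWBALL_026048_st it was 0.04 and 0.36. Whether the runs mark a difference in handling is not given in the labels.

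Markers of the tissue and of its neighbours were read from the same arrays, each list scored as the mean log2 signal of its members. Enterocyte markers such as VIL1, FABP2 and APOA4 had a mean score of 9.39 ± 0.56 in high FE and 9.17 ± 0.75 in low FE (SD, n = 6 each). In high FE 5 of 7 members had higher means, while ANPEP (-0.49, high minus low FE) and APOA4 (-0.01) had lower ones. Smooth muscle markers were lower in mean in high FE for 6 of 7 members, with scores between 7.65 and 8.03 in high FE and between 7.66 and 8.54 in low FE. Goblet cell markers were lower in mean for 5 of 5 members, with scores between 10.32 and 11.04 in high FE and between 10.67 and 11.12 in low FE. Lower means in high FE were the commoner direction over all 12221 genes tested as well, with 7108 lower and 5113 higher. The pancreatic acinar score was 6.82 in low FE pig 6, against 3.11 to 3.31 in high FE and 3.27 to 3.62 in the other low FE pigs, and SNOWBALL_042415_st was 0.945 higher in high FE without low FE pig 6. Scores of T cell, B cell, macrophage, endothelial, fibroblast and proliferation markers differed by 0.16 or less in size between the groups. The part of cell composition in the RAP1GDS1 values was not tested, and in these bulk samples fewer cells of a type and less RNA per cell cannot be told apart.

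Genes whose signal followed that of SNOWBALL_042415_st most closely over the 12 pigs were taken from 12220 other genes by Pearson r, each gene standing as its tested probe set with the highest mean. The 5 with the highest r were RBM45 (0.83), CTDSPL2 (0.82), G2E3 (0.81), MRPL47 (0.79) and TAF9B (0.78). RBM45 is an RNA-binding protein, CTDSPL2 a phosphatase-like protein, G2E3 a ubiquitin ligase, MRPL47 a protein of the large mitochondrial ribosomal subunit and TAF9B a subunit of the general transcription factor TFIID. These r values are the extremes of many genes over 12 pigs and carry no p. Because RAP1GDS1 was chosen by FE, genes that follow it tend to differ by FE as well, and their FE differences are described and not tested.

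RBM45, with the highest r, had a lowest, median and highest signal of 3.55, 4.19 and 4.36 in high FE and of 3.07, 3.51 and 4.02 in low FE. MRPL47 had 4.82, 5.05 and 5.41 in high FE and 4.19, 4.54 and 5.03 in low FE. The groups overlapped for both genes, more narrowly for MRPL47. G2E3 ranged between 4.23 and 5.10 in high FE and between 3.89 and 4.86 in low FE, a wide overlap, and its r was 0.88 with the mean of each combination of FE and sex removed. The r after that removal was 0.64 for RBM45, 0.65 for CTDSPL2, 0.60 for MRPL47 and 0.58 for TAF9B. CTDSPL2 and TAF9B each had 1 further probe set, whose FE difference had the opposite sign.

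The 3 genes with the lowest r were SPNS2 (-0.92), BOP1 (-0.85) and YTHDF1 (-0.85). SPNS2 exports sphingosine-1-phosphate from cells, BOP1 acts in the maturation of the large ribosomal subunit, and YTHDF1 binds methylated messenger RNA. SPNS2 had a lowest, median and highest signal of 6.56, 6.74 and 6.99 in high FE and of 6.83, 7.19 and 7.34 in low FE. It was lowest in high FE pig 4, which had the highest RAP1GDS1 signal, and highest in low FE pig 5, and its groups overlapped. SPNS2 had 3 tested probe sets, of which 1 other had an FE difference of the same sign and 1 did not. With the means removed its r was -0.73, that of BOP1 -0.68 and that of YTHDF1 -0.22.

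The likeness to SNOWBALL_026048_st differed from gene to gene. The r of the 5 most alike genes with it lay between 0.26 for RBM45 and 0.39 for G2E3, and after removal of the means between -0.36 for RBM45 and -0.05 for MRPL47. Among the 3 most opposite genes, YTHDF1 had an r of -0.74 with SNOWBALL_026048_st and of -0.41 after removal of the means, SPNS2 of -0.62 and -0.09, and BOP1 of -0.36 and 0.14. Before removal of the means the sign was the same with both RAP1GDS1 probe sets for these 8 genes, and after it the sign was the same for YTHDF1 and SPNS2 and opposite for the other 6.

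**Figure D4:**
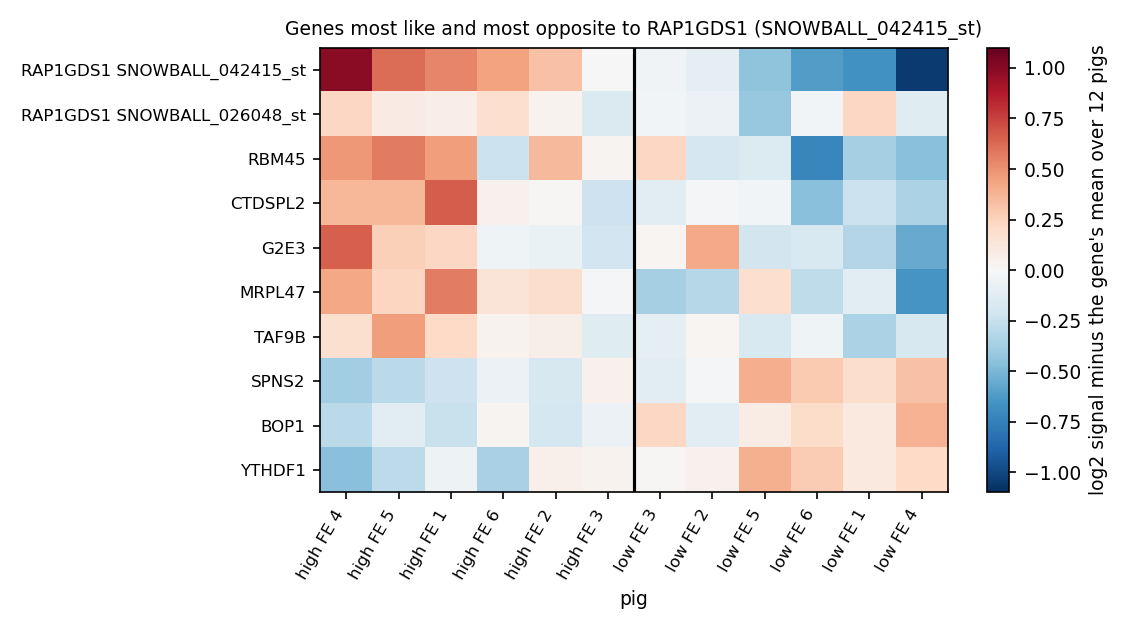
Each row is a probe set of RAP1GDS1 or one of the 5 genes most like and the 3 most opposite to SNOWBALL_042415_st, each column a pig, sorted within high FE (left of the line) and low FE (right) by SNOWBALL_042415_st; colour is the log2 signal minus the mean of the row. The red-to-blue gradient of the top row is broadly repeated in the 5 most alike genes, turned round in SPNS2, BOP1 and YTHDF1, and faint in SNOWBALL_026048_st.

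The genes next to RAP1GDS1 in the order of the Sscrofa11.1 gene table did not pass the threshold for FE where tested. On one side lie TSPAN5, EIF4E and METAP1, a tetraspanin, the cap-binding translation factor and a methionine aminopeptidase. TSPAN5 differed by -0.07 ± 0.14 (SE), EIF4E by 0.31 ± 0.13 (SE) and METAP1 by -0.18 ± 0.16 (SE) between high and low FE, with limma adjusted p-values of 0.901, 0.753 and 0.782. TSPAN5 had a mean of 2.75, close to the background medians. EIF4E ranged between 6.43 and 6.84 in high FE and between 6.09 and 6.63 in low FE, and its r with SNOWBALL_042415_st was 0.56, and 0.08 with the means of FE and sex removed. On the other side, UNC5C, a netrin receptor, had a mean of 2.12 in high FE and 2.12 in low FE, under the filter on dim probe sets. BMPR1B, a BMP receptor, differed by 0.27 ± 0.36 (SE) and PDLIM5, a scaffold protein of the cytoskeleton, by 0.02 ± 0.13 (SE), with limma adjusted p-values of 0.849 and 0.98. STPG2 and PDHA2, which lie nearer on that side, have no probe set named for them in the annotation.

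The partners of SmgGDS were followed in 6 lists of small GTPases and of proteins that modify, hold or switch them. Of 79 genes listed, 65 were tested. None passed for FE, sex or their interaction (limma, Benjamini-Hochberg over 33405 probe sets), where 0%, 0.0210% and 0.00299% of all probe sets passed. At an unadjusted p under 0.05 there was 1 gene higher in high FE (RHOG) and 0 lower. Of all 12221 genes tested, 250 were higher and 447 lower, and of all probe sets 2.65% and 3.34%. For sex there was 1 gene higher in males (FNTB) and 1 lower (DIRAS2), against 2.31% and 2.23% of all probe sets. For the interaction there was 1 gene, RHOU (unadjusted p = 0.0458, limma adjusted p = 0.998), against 3.27% of all probe sets, and it is named after its value was seen. An ordinary linear model gave 0 genes of the lists in each comparison as well. Higher means in high FE were found for 24 of the 65 and lower means for 41, with a median difference of -0.04, the same as the median over all 12221 genes tested. Of those 12221 genes, 5113 had higher means in high FE and 7108 lower. The counts by list below stand beside that split and were not tested against it.

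Among the RAS, RAP and RAL GTPases, 9 of 16 lay higher in high FE on average and 7 lower, and the median difference was 0.02. RAP1A and RAP1B, the GTPases after which RAP1GDS1 is named, differed in opposite directions. RAP1B had a lowest, median and highest signal of 6.99, 7.08 and 7.35 in high FE and of 6.47, 7.11 and 7.17 in low FE, a difference of 0.13 ± 0.14 (SE; limma adjusted p = 0.802). RAP1A had 4.17, 5.08 and 5.77 in high FE and 4.75, 5.19 and 5.70 in low FE, a difference of -0.24 ± 0.24 (SE; limma adjusted p = 0.798). For RAP1B the other probe set had the same sign, and for RAP1A its 2 other probe sets had the opposite sign. The groups overlapped widely for both genes. NRAS differed by -0.14 ± 0.12 (SE; limma adjusted p = 0.773) and had 1 of 2 other probe sets of the same sign. DIRAS2, of a family whose member DIRAS1 binds SmgGDS in human cells, had the lowest unadjusted p of the list for sex (0.0347), at 3.87 ± 0.16 in males and 4.19 ± 0.25 in females (SD, n = 6 each; limma adjusted p = 0.975). HRAS came next for sex, at -0.21 ± 0.13 (SE; limma adjusted p = 0.975).

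Of the 16 GTPases of the RHOA, RAC and CDC42 family, 5 lay higher in high FE on average and 11 lower, and the median difference was -0.13. RHOA, which organises actin stress fibres, had a lowest, median and highest signal of 7.63, 8.02 and 8.42 in high FE and of 7.99, 8.29 and 8.89 in low FE, a difference of -0.31 ± 0.19 (SE; limma adjusted p = 0.753). RAC1, which drives actin at the leading edge, differed by -0.14 ± 0.13 (SE; limma adjusted p = 0.78). CDC42, which acts in epithelial polarity, differed by 0.16 ± 0.12 (SE; limma adjusted p = 0.767). RHOG was the gene of the list with an unadjusted p under 0.05 for FE (0.0471), at 4.37 ± 0.27 in high FE and 4.03 ± 0.24 in low FE (SD, n = 6 each; limma adjusted p = 0.753). RHOB differed by -0.37 ± 0.20 (SE; limma adjusted p = 0.753). For sex the list's lowest unadjusted p was 0.206, for RHOH, a GTPase of blood cells, at 0.23 ± 0.17 (SE; limma adjusted p = 0.975).

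Prenylation enzymes and their helpers attach the lipid tail that SmgGDS responds to and process the C terminus that carries it. Of 11 tested, 3 lay higher in high FE on average and 8 lower, and the median difference was -0.04. PDE6D, a carrier of prenylated proteins, ranged between 7.13 and 8.37 in high FE and between 7.99 and 8.38 in low FE, a difference of -0.37 ± 0.20 (SE; limma adjusted p = 0.753). FNTB, the beta subunit of farnesyltransferase, differed by -0.24 ± 0.14 (SE; limma adjusted p = 0.753) for FE and had the lowest unadjusted p of all lists for sex (0.0128). It had 5.88 ± 0.20 in males and 5.48 ± 0.29 in females (SD, n = 6 each), a difference of 0.40 ± 0.14 (SE; limma adjusted p = 0.975). CHM, the Rab escort protein, differed by -0.33 ± 0.19 (SE; limma adjusted p = 0.975) for sex. PGGT1B, the beta subunit of the geranylgeranyl transferase that modifies RAP1A and RHOA, has no probe set named for it in the annotation.

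The guanine nucleotide dissociation inhibitors, which hold prenylated GTPases in the cytosol, lay lower in high FE on average in 3 of 3 tested members, with a median difference of -0.13. GDI2 differed by -0.17 ± 0.12 (SE), ARHGDIG by -0.13 ± 0.13 (SE) and ARHGDIB by -0.03 ± 0.13 (SE), with limma adjusted p-values of 0.76, 0.794 and 0.97. For ARHGDIB, the inhibitor of blood cells, male minus female was 0.09 ± 0.13 (SE; limma adjusted p = 0.982). ARHGDIG had a mean of 2.83, close to the background medians.

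Exchange factors and GTPase-activating proteins of RAP1 lay higher in high FE on average in 6 of 12 cases and lower in 6, and the median difference was 0. RAPGEF5 differed by 0.20 ± 0.16 (SE) and RAPGEF3, which is activated by cyclic AMP, by 0.11 ± 0.12 (SE), with limma adjusted p-values of 0.772 and 0.816. For sex, RAPGEF2 and RASGRP3 had the lowest unadjusted p of the list, at 0.33 ± 0.18 (SE) and 0.29 ± 0.17 (SE), both with a limma adjusted p of 0.975. RAPGEF6 lay under the filter. Of 7 RAP1 effectors, 1 lay higher in high FE on average and 6 lower, and the median difference was -0.07. CNKSR1 differed by -0.13 ± 0.15 (SE) and RASIP1, an effector in blood vessels, by -0.14 ± 0.17 (SE), with limma adjusted p-values of 0.828 and 0.829. The other probe set had the same sign for CNKSR1 and the opposite sign for RASIP1. RASIP1 had the lowest unadjusted p of the list for sex (0.0686), with male minus female at -0.34 ± 0.17 (SE; limma adjusted p = 0.975). Talin 1 (TLN1), which links integrins to actin, differed by -0.01 ± 0.09 (SE; limma adjusted p = 0.987) for FE and by 0.10 ± 0.09 (SE; limma adjusted p = 0.975) between males and females.

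**Figure D5:**
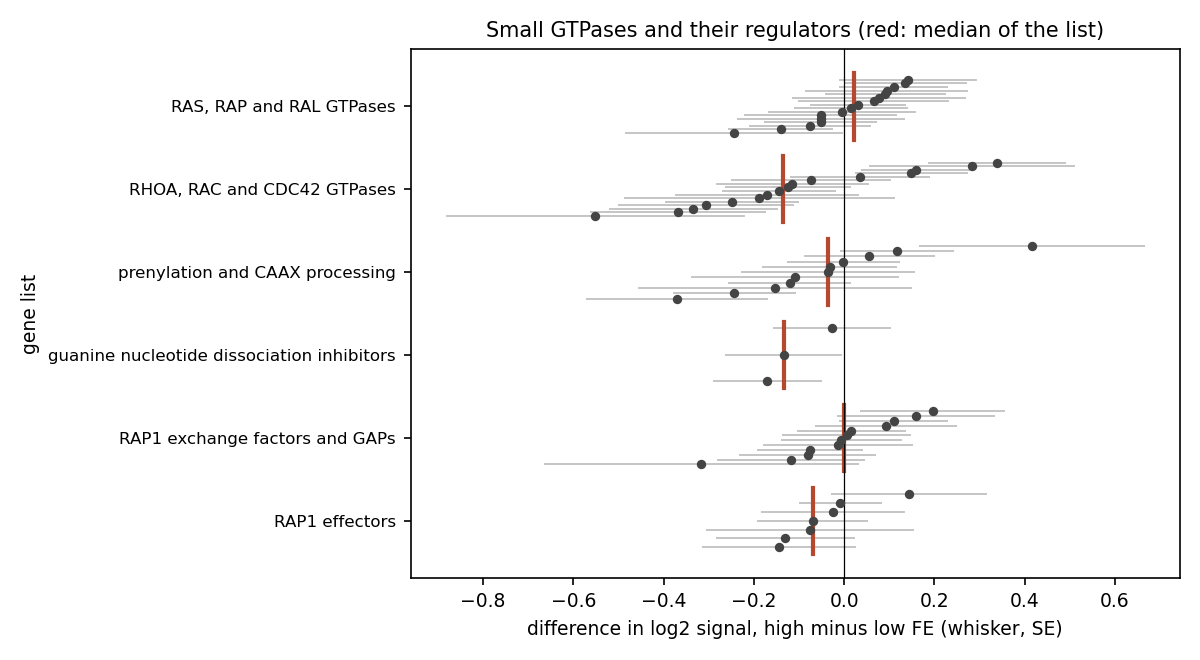
Each point is one of the 65 tested genes of the 6 lists, placed by its difference in log2 signal between high and low FE (horizontal axis, with the SE from limma as a whisker) and grouped by list (vertical axis), with the median of each list in red. Medians lie between -0.13 and 0.02, and no gene passed the threshold.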

How the data were processed

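RNA was purified with Qiazol followed by RNeasy columns, copied with an Ambion WT Expression Kit and labelled with biotin, per the labels' protocols. The submitters' processing notes name GCOS 1.1.1, and how background, normalization and summarization were handled is not stated. Judged by their range, the deposited values of the 47845 probe sets are log2 signals (0.21 to 14.21), and they were used unaltered. Array medians lay between 3.83 and 3.91, and the number of arrays limits the precision.

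Symbols came from the platform annotation, which can be old; 26426 probe sets had 1 symbol, 0 several and 21296 other than controls none. An outdated symbol took the current one of the Sscrofa11.1 gene table where it was a synonym of 1 gene. The 123 control probe sets were left out. Probe sets with a mean above the 30th percentile of the others (2.37) went into limma 3.58.1 (R 4.3.3), with FE and sex in one model, or the 4 combinations of FE and sex for the interaction and the differences within each sex. P-values were adjusted by Benjamini-Hochberg over all 33405 probe sets, at a threshold of 0.05. A gene is represented by its tested probe set with the highest mean. Correlations used 100000 resamples over 12 arrays and exact permutation over 6. The fit was tested on simulated data.

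RAP1GDS1, the gene lists and the tests were chosen with earlier results of these data known. The genes named are all RAP1GDS1 probe sets, the 5 most and 3 least correlated genes, the 3 nearest measured named genes on each side and, per list, the 2 with the lowest unadjusted p for FE and for sex, plus RAP1A, RAP1B, RHOA, RAC1 and CDC42; 1 more gene of the rule is not reported here. STPG2, PDHA2, RAPGEF6 and PGGT1B (and RHOU for its interaction) are named outside the rule, the first 4 only to say that they were not tested, and the marker genes as examples of their lists. Alternatives changed the normalization, the filter, the variance model, array weights, model terms, the probe set and the set of pigs. The p-values set each difference or correlation against the variation between these pigs and treat the pigs as independent. The labels do not say how the pigs were housed or related, so that independence could not be checked.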

Additional observations from a re-analysis of the deposited data

How the results depend on the processing

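Over the fits that each left out 1 of the 12 pigs, high minus low FE lay between 0.847 and 1.081 for SNOWBALL_042415_st. The gene was chosen by this difference in the same pigs, so nothing is read from its staying above 0, here or under the other settings below. For SNOWBALL_026048_st the difference lay between 0.075 and 0.212, and the counts of pathway genes past the threshold were 0 in every fit without 1 pig. With SNOWBALL_026048_st in place of SNOWBALL_042415_st the gene's FE difference was 0.148, and with the mean of both it was 0.56. Male minus female, which is close to 0, turned its sign for SNOWBALL_026048_st when the model held a term for the identifier run (-0.033), and lay between -0.103 and 0.137 for SNOWBALL_042415_st and between -0.046 and 0.082 for SNOWBALL_026048_st over the fits without 1 pig; adjusted p was 0.944 or more in all of these. The r between both probe sets lay between 0.367 and 0.722 without 1 pig, the highest value without low FE pig 1, and was 0.508 with quantile normalization. By Spearman's rho 3 of the 5 most alike genes were the same, and after removal of the means of FE and sex 0 were. Quantile normalization, the array background as a term, other filters, variance models and array weights left the FE and sex differences of both probe sets on the same side of 0 and the pathway counts at 0, where each was run. No paired analysis was possible because the labels give no replicate numbers that tie high and low FE pigs together.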
